A study of Mus musculus with 18 samples.

Results

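Rap1gap2, Prdm16, Phactr1, Dab1 and Npas3 are 5 long mouse genes at which many windows of the histone mark H3K27me3 fell in epidermis expressing the mutant histone H3K36M. They were chosen by the number of H3K27me3 windows called lower in the mutant, 6 at each, from among 21900 protein-coding genes. Their H3K27me3 values below are therefore a description with no test. Each gene was taken as its RefSeq body on GRCm38 with 5 kb on either side, and every row of the 3 deposited tables that touched such a region was read. The marks were mapped by CUT&RUN, in which an antibody steers a nuclease to cut out the DNA next to a histone mark, on dissociated mouse epidermis. All 6 animals carried the LSL-H3K36M construct, in which a stop cassette blocks the mutant histone until Cre removes it. The 3 Krt14-Cre(+); LSL-H3K36M animals, called mutant here, have Cre under the promoter of the basal keratin gene Krt14, and the 3 Krt14-Cre(-); LSL-H3K36M animals are the WT controls. Age and sex are not among the labels used here, and the labels name no sort for Krt14-expressing cells.

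H3K27me3 is laid down by Polycomb repressive complex 2, whose enzyme is EZH2 or EZH1, and keeps developmental genes silent in cell types that do not use them. H3K36 methylation hinders that enzyme, and H3K36M blocks the methyltransferases that place it. The 5 genes are known mainly from other tissues. Rap1gap2 encodes an activator of GTP hydrolysis by the small GTPase Rap1, studied in human platelets. Prdm16 encodes a zinc finger transcription regulator of brown fat and of blood and neural stem cells. Phactr1 encodes a protein that binds actin and protein phosphatase 1. Dab1 encodes the cytoplasmic adaptor of Reelin signalling, which positions migrating neurons, and Npas3 encodes a bHLH-PAS transcription factor of the brain.

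The tables give means per genotype and no value per animal, so no spread between animals stands beside any mean below. Of 18072 windows of 401 bp tested for H3K27me3, 2742 were called lower in the mutant at an FDR under 0.05 (15.2%) and 1543 higher (8.54%). Windows that were not called are not among the rows read, so the number of windows tested inside a gene is not known. For H3K36me2 the same number of windows was tested, and a separate table gives 13409 broad islands from 59539924 mutant and 47361190 WT reads. A lower mean in such bulk samples can come, among other sources, from fewer cells with the mark or from less of it per cell. These cannot be told apart. The means are normalised reads, and no spike-in is given in the sources used here, so whether a fall is an absolute loss is not known. The tables hold no expression and compare mutant with WT, so the tissue label could not be checked in them.

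Every one of the 5 genes had a falling window close to the most upstream start among its RefSeq promoters. In Prdm16, Phactr1 and Npas3 the gene body begins upstream of that start, at 154637360, 42680374 and 53248026. Distances to a start are measured from the starts of the RefSeq promoters. These starts are not alike in sequence, which the 300-base promoters show (250 bases before to 50 after a start, RefSeq, GRCm38.p6, printed along the gene's strand with each CG dinucleotide in capitals). CG dinucleotides are the sites of DNA methylation, and stretches rich in them are the usual landing places of Polycomb. The first pair contrasts a CG-rich and a CG-poor start of Rap1gap2. Phactr1 has a CG-poor start with a falling window, the Npas3 promoter overlaps one, and the inner start of Dab1 is the richest in CG of the set.
Rap1gap2 inner start, chr11:74590137-74590436, minus strand: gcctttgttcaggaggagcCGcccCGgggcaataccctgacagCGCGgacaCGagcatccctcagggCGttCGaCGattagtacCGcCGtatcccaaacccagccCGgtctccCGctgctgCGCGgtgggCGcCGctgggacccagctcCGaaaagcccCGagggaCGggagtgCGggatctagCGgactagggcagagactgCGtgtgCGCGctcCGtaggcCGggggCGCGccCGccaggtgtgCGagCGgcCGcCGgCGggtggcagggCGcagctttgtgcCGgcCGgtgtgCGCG
Rap1gap2 CG-poor start, chr11:74558978-74559277, minus strand: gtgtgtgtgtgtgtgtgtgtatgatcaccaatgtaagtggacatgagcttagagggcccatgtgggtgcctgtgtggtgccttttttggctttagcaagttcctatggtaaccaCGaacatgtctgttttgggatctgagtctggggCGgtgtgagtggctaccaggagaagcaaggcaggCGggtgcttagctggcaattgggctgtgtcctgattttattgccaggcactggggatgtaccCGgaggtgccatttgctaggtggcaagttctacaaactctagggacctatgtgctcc
Phactr1 first start, chr13:42680549-42680848, plus strand: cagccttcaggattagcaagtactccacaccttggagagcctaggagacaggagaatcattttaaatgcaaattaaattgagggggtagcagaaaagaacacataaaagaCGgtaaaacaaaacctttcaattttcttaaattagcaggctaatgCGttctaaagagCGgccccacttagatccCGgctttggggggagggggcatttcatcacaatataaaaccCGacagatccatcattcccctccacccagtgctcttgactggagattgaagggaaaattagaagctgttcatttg
Dab1 inner start, chr4:104367288-104367587, plus strand: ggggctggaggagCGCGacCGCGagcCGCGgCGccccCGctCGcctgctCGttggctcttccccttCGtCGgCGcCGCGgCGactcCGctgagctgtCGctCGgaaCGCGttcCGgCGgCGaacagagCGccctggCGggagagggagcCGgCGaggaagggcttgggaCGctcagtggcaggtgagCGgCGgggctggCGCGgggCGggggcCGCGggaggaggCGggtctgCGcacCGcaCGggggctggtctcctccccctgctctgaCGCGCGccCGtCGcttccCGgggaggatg
Npas3 start, chr12:53248182-53248481, plus strand: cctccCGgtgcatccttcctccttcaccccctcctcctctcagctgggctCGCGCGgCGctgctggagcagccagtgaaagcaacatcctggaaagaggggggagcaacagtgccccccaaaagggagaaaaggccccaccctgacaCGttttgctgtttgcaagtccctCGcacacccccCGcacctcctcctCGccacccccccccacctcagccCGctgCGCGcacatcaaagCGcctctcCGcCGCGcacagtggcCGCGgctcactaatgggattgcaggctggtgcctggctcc

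The 5 genes have 11 starts in the RefSeq promoter table, and 7 of them had a falling window within 5 kb. Those 7 promoters held 5 to 39 CG dinucleotides with a median of 24. The other 4 held 4, 4, 8 and 46. Across 21263 promoters of protein-coding genes the median was 13, with quartiles of 4 and 24, and 95.4% held at least 1. Of the 6 starts at or above that median, 5 had a falling window within 5 kb, against 2 of the 5 below it, a difference that was not tested. The richest promoter of all 11, the inner start of Dab1, had its nearest falling window 5.73 kb away. CG reads the same on both strands, so each site was counted once.

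**Figure D1:**
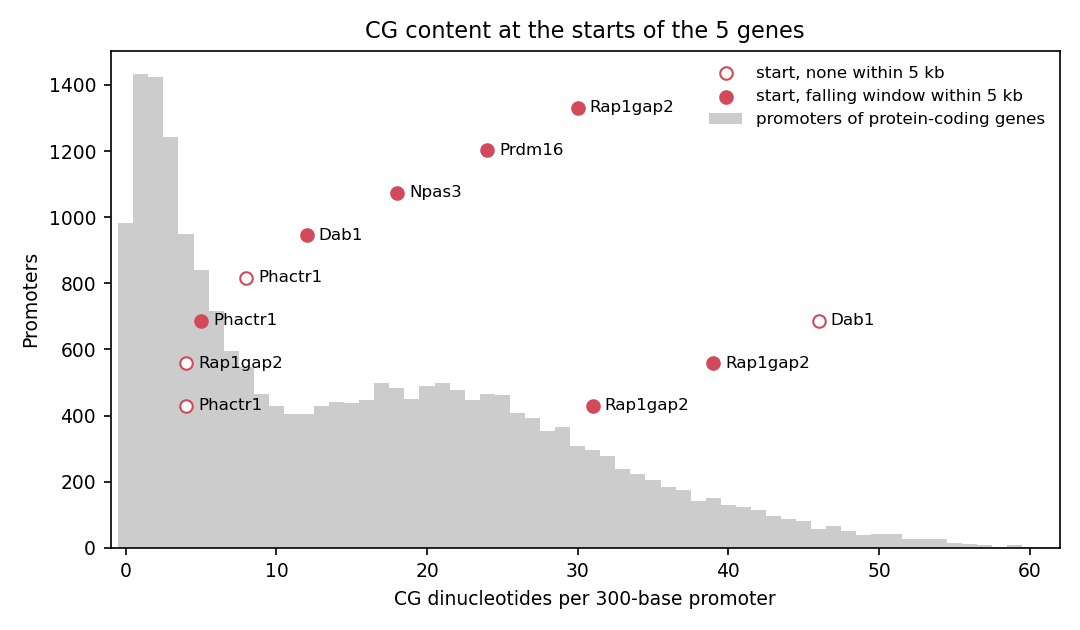
Number of CG dinucleotides per 300-base promoter (x axis) for 21263 promoters of protein-coding genes (grey bars, count of promoters on the y axis) and for the 11 starts of the 5 genes (circles, whose height has no meaning). Filled circles, with a falling H3K27me3 window within 5 kb, lie from 5 to 39 CG, and open circles at 4, 4, 8 and 46.

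Rap1gap2, on the minus strand of chromosome 11 from 74383356 to 74610915, is the shortest of the genes at 228 kb. As each gene was chosen with 6 windows, density only restates length. Rap1gap2 had the highest, 2.64 falling windows per 100 kb of gene body, those in the flanks included. Its strongest window lay 582 bp upstream of an inner start, from 74590768 to 74591168, with mean H3K27me3 of 141.6 normalised WT reads and 46.7 mutant reads. That window ranked 4th by p among the 4285 listed, with a log2 fold of -1.53 and an FDR of 8.27e-13 by the authors' deposited table. The window 177 bp upstream of the first start had 70.8 WT and 31.5 mutant reads. A window 1247 bp upstream of the innermost start had 56.5 and 31.0 reads, the smallest relative loss of the 30 windows at 0.549 times WT. The CG-poor start had its nearest falling window at 5.58 kb, with 23.3 WT and 8.89 mutant reads. Beyond all starts, the last 2 windows had 17.6 against 6.36 and 18.9 against 7.78 reads. Within Rap1gap2 the 3 windows beside CG-rich starts were thus the highest in both genotypes, and the 3 others had at most 23.3 WT reads.

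Prdm16, on the minus strand of chromosome 4 from 154316122 to 154637360, held the highest of the 30 listed windows. It lay 2805 bp upstream of the start, from 154639678 to 154640078, inside the antisense-named transcript gene Prdm16os, with 180.4 WT and 75.8 mutant reads (log2 fold -1.16, FDR 7.48e-08 by the authors' deposited table). The next window, 6.33 kb downstream of the start, had 54.5 WT and 16.1 mutant reads. Farther along, 4 windows from 84.5 to 296.9 kb had WT means of 27.3, 29.4, 33.1 and 20.7 reads. The mutant means of these 4 were 10.54, 11.4, 9.65 and 8.41 reads. Among the 6 listed windows of Prdm16 the one nearest the start was the highest in both genotypes, and the mutant level ranged from 0.291 to 0.420 of WT. The window 84.5 kb from the start also lies in the lncRNA gene Gm13133.

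Phactr1, on the plus strand of chromosome 13 from 42680374 to 43138526, had the largest relative loss. The first window of Phactr1, 725 bp upstream of the first start and from 42679674 to 42680074, had 81.6 WT and 14.7 mutant reads, 0.180 times WT. In the authors' deposited table this window had a log2 fold of -1.73 and an FDR of 3.00e-04. A window 28.8 kb downstream of that start had 51.2 WT and 14.3 mutant reads and the gene's lowest FDR, 6.31e-07 by the authors' deposited table. The remaining 4 windows ran from 92.7 to 379.9 kb, with WT means of 24.6, 32.9, 28.9 and 23.2 and mutant means of 7.26, 7.26, 7.62 and 8.92 reads. The other starts of Phactr1 lay 53.0 and 61.97 kb from any falling window, and their promoters held 4 and 8 CG.

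Dab1, on the plus strand of chromosome 4 from 103619500 to 104744844, is the longest of the genes at 1125 kb. By its length it had the lowest density, 0.533 falling windows per 100 kb. At its first start a window had 33.1 WT and 9.18 mutant reads. A group of 3 windows ended 5.73 kb before the CG-rich inner start, with WT means of 32.9, 31.5 and 36.9 reads. Their mutant means were 6.76, 7.38 and 10.51 reads, and the first of them had the gene's lowest FDR, 1.31e-06 by the authors' deposited table. The weakest window of the gene, 241.7 kb from the first start, had 13.7 WT and 4.56 mutant reads (FDR 0.0445 by the authors' deposited table), and the last, at 1063 kb, had 23.8 and 8.72. Among listed windows, the largest WT mean at Dab1 was 36.9 reads, against maxima of 81.6 to 180.4 in the other 4 genes.

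Npas3, on the plus strand of chromosome 12 from 53248026 to 54072173, had a window at its start and a long gap after it. The start window, from 53247802 to 53248202, overlaps the printed promoter and had 85.2 WT and 38.3 mutant reads (log2 fold -1.07, FDR 9.19e-06 by the authors' deposited table). No listed window followed for 475 kb. Then 5 windows from 475.0 to 823.5 kb had WT means of 52.2, 38.7, 14.6, 24.2 and 34.1 reads, and mutant means of 16.6, 12.4, 4.45, 5.89 and 9.93. The last of them lies on the annotated 3′ end of the gene.

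**Figure D2:**
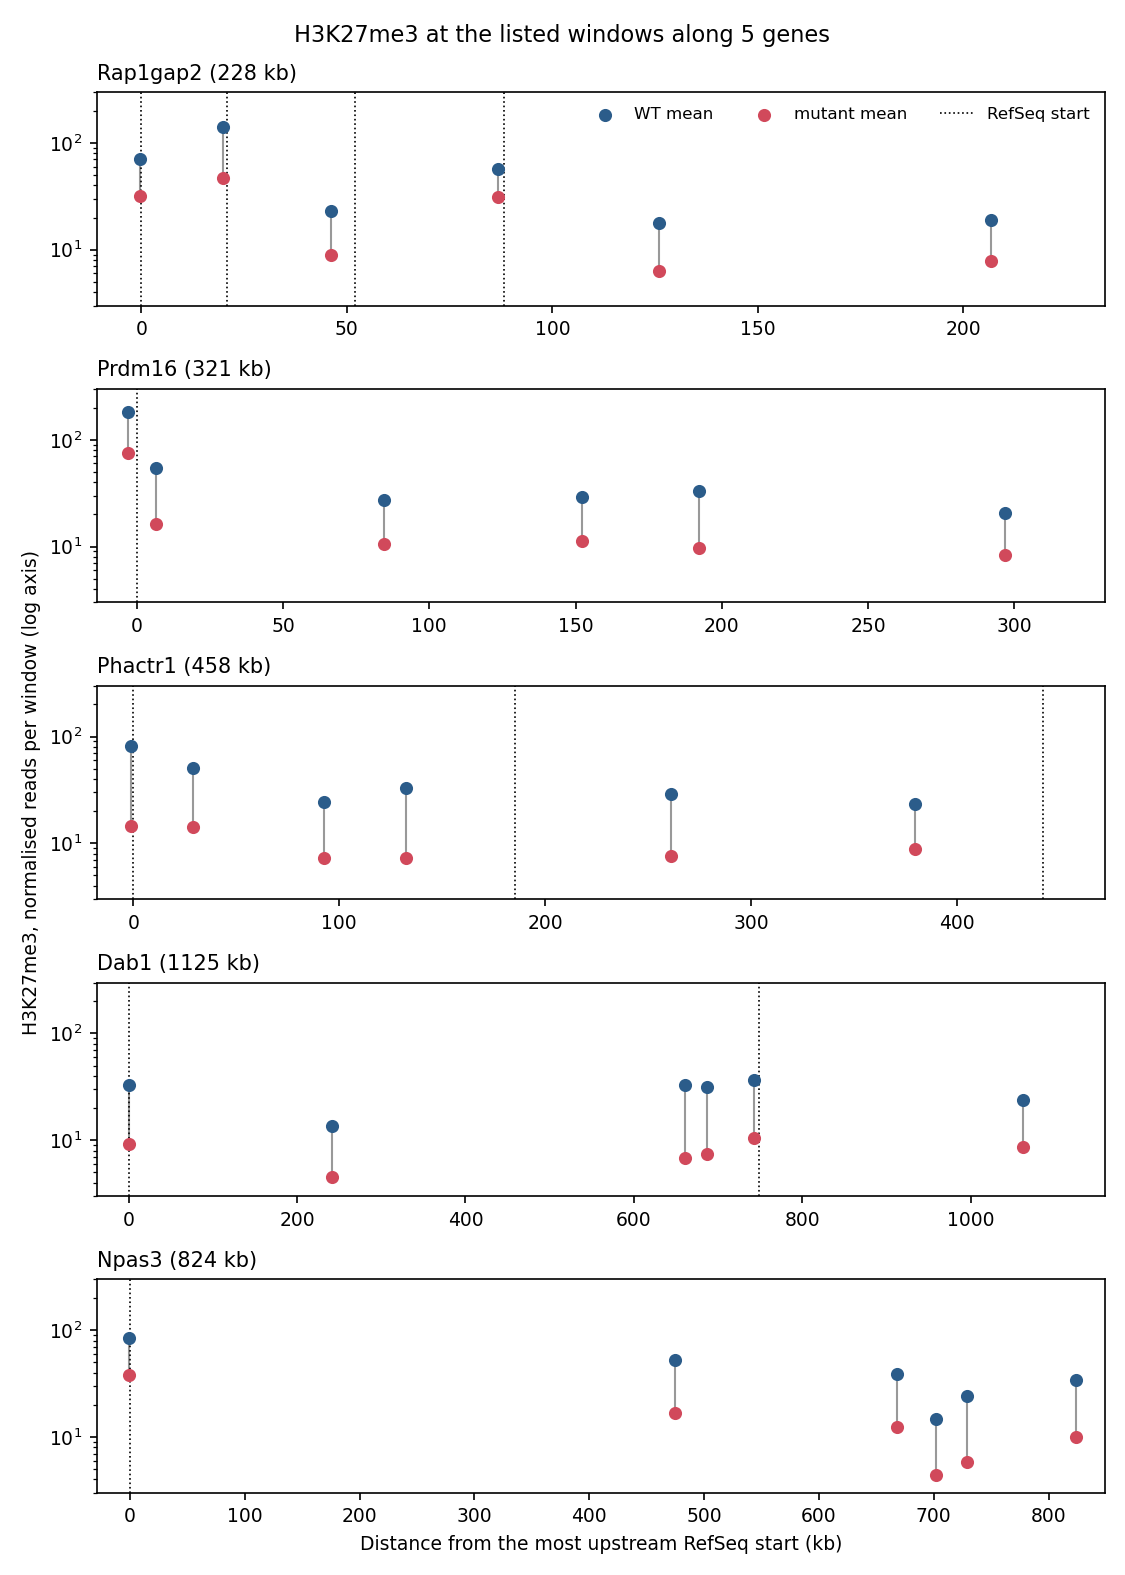
Mean H3K27me3 in normalised reads per 401 bp window (y axis, log scale) against distance from the most upstream RefSeq start in kb (x axis) for the 6 listed windows of each gene, with WT in blue, mutant in red and RefSeq starts as dotted lines. The mutant point is below the WT point at all 30 windows, and the highest of the listed windows, up to 180.4 WT reads, sit beside starts in every gene except Dab1.

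Taking the 30 windows as a set, 30 fell and 0 rose, the count by which the genes were found. WT means ran from 13.7 to 180.4 reads with a median of 32.9, and mutant means from 4.45 to 75.8 with a median of 9.42. The mutant-to-WT ratio ran from 0.180 to 0.549 with a median of 0.320, a log2 difference of -1.65. Over all 2742 falling windows the median WT mean was 51.6 reads and the median ratio 0.412. The windows of the 5 genes were accordingly weaker in WT and relatively lower in the mutant than a typical falling window, as description only. A window with few reads passes the FDR only with a large difference, so level and ratio are tied among called windows, which the plot of mutant against WT means shows.

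**Figure D3:**
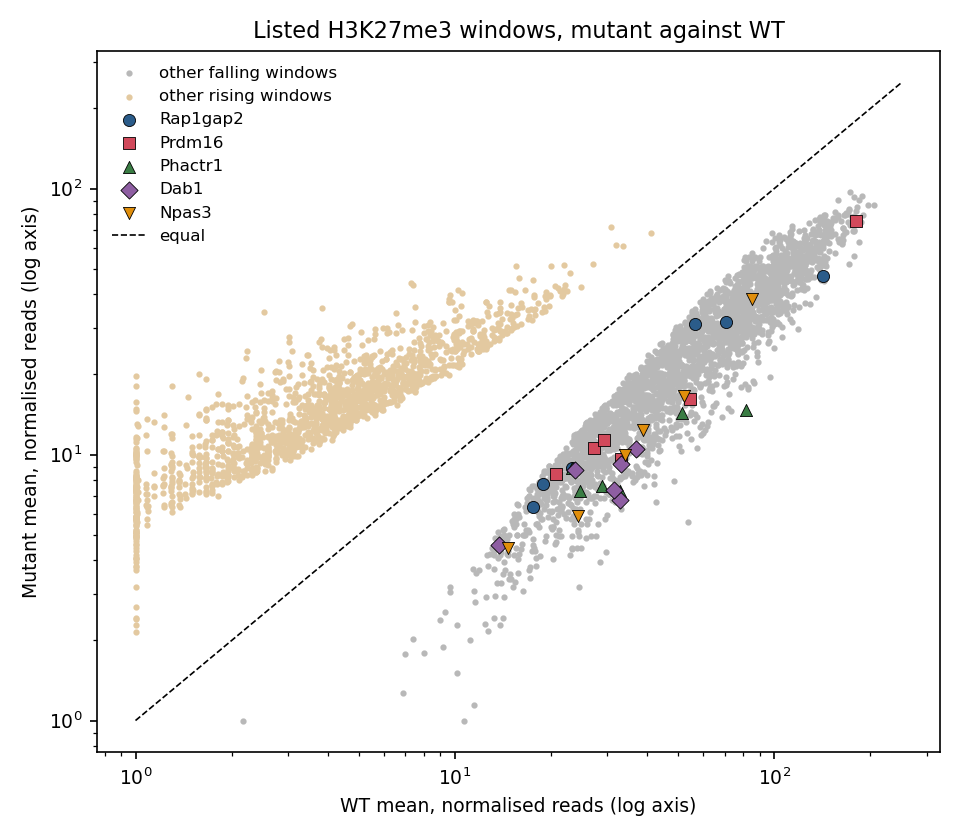
Mutant mean (y axis) against WT mean (x axis), both in normalised reads on log scales, for all 4285 listed H3K27me3 windows, with falling windows in grey, rising windows in tan and the 30 windows of the 5 genes in colour. The coloured points all lie under the line of equal means, between ratios of 0.180 and 0.549, and the left tip of the falling cloud lies farther from that line than its right end.

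Position along the gene split the windows into a strong and a weak kind. The 7 windows within 5 kb of a start of their own gene had WT means of 33.1 to 180.4 reads (median 81.6) and mutant means of 9.18 to 75.8 (median 31.5). The 23 windows away from starts had WT means of 13.7 to 54.5 (median 28.9) and mutant means of 4.45 to 16.6 (median 8.72). WT ranges overlapped between 33.1 and 54.5 reads. The median ratio was 0.420 beside starts and 0.304 away from them. For other genes of at least 200 kb a wider rule was used, in which a start of any protein-coding gene counted. The 5 genes and the other long genes are therefore not measured alike. In the other long genes, the median WT means of falling windows were 77.7 reads beside starts (147 windows) and 41.0 away from them (230 windows). The median ratios there were 0.418 and 0.374. Windows away from starts made up 76.7% of those in the 5 genes, against 61.0% of 377 falling windows in the other long genes on chromosomes that the start table covers.

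These windows did not form continuous blocks. Neighbouring falling windows of a gene were 9.13 kb (Prdm16) to 475.0 kb (Npas3) apart. The nearest rising H3K27me3 window lay 137.3 kb from an Npas3 window and 1151 kb from a Rap1gap2 window. For Prdm16 the gap was 276.6 kb, for Dab1 434.2 kb and for Phactr1 641.0 kb. These gaps were not set beside those of other windows, so whether they are unusual is not known. Within 100 kb outside the gene ends there was 1 more falling window beside Dab1, none beside the other 4 and no rising window beside any.

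At the threshold of the choice, 6 genes held 6 falling windows and 2 held 5. The sixth gene was Camta1, a calmodulin-binding transcription activator gene of 802 kb that is tied with the 5 and not among them. Its WT means ran from 13.8 to 31.4 reads with a median ratio of 0.300. Just outside were Skap1, a T cell adaptor gene, with WT means of 45.3 to 94.7 reads, and Celf4, an RNA-binding protein gene, with 12.8 to 88.8. Of the 21900 genes, 1627 had any falling window and 54 had 3 or more. Among the 990 genes of at least 200 kb, 27.1% had a falling and 12.9% a rising window, against 7.43% and 2.64% of all protein-coding genes. Falling windows per 100 kb of gene body, those in the flanks included, numbered 0.101 in these long genes and 0.184 over all genes. The flanks are in the counts and not in the lengths, which weighs more in short genes. The median length was 325 kb in the long genes and 17.1 kb over all genes, so the 2 densities are not measured alike. A role of gene length was not tested.

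H3K36me2, the mark that H3K36M acts on, was not used to choose the genes. Broad H3K36me2 islands were found in Dab1 and in none of the other 4. Both Dab1 islands were lower in the mutant, which 58.1% of all 13409 islands were, while 17.3% were higher. The first, from 103958801 to 103963600, had 142 mutant and 172 WT reads in the pools, a depth-scaled ratio of 0.657 (exact binomial 95% interval 0.522 to 0.825) and an FDR of 4.27e-07 by the authors' deposited table. Nearer the end of the gene, from 104726001 to 104729800, the other had 95 and 135 reads, a ratio of 0.560 (0.426 to 0.733) and an FDR of 2.07e-09 by the authors' deposited table. An exact binomial test on the same reads, adjusted over all islands by Benjamini-Hochberg, gave adjusted p-values of 8.85e-04 and 1.01e-04, with 47.6% of all islands lower by that test. Relative to the median log2 fold of all islands, -0.30, the first was not called (adjusted p = 0.121) and the second was (adjusted p = 0.0173), with 13.8% of islands lower on that scale. These tests compare pooled reads, and the intervals cover at most counting error, not the spread between animals.

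The falling windows lay outside islands. Of the 30, 0 overlapped an island and 0 came within 5 kb of one, and the gaps ran from 43.7 to 541.4 kb with a median of 284.6 kb. Among all 2742 falling windows, 6 (0.219%) overlapped an island and the median gap was 171.4 kb, whereas 288 of the 1543 rising windows (18.7%) overlapped one. The genes with 3 or more falling windows had an island in 10 of 54 cases, and those with 3 or more rising windows in 16 of 17. Among all genes of at least 200 kb, 41.3% had an island.

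The islands nearest to the 5 genes lay 29.3 to 1116 kb from the gene ends. By the deposited FDR, 58.1% of all islands were lower in the mutant, and 9 of these nearest 10 were. Their ratio was lowest upstream of Phactr1, 359.6 kb away, at 0.522 (0.411 to 0.660), with 120 mutant and 183 WT reads. Upstream of Npas3, 493.6 kb away, it was 0.606 (0.482 to 0.761). The exception stood 29.3 kb downstream of Prdm16, from 154283401 to 154286800, with 145 mutant and 65 WT reads, a ratio of 1.77 (1.32 to 2.42) and an FDR of 6.83e-09 by the authors' deposited table. By the exact binomial test 8 of the 10 were lower, beside 47.6% of all islands. Relative to the median of all islands 2 were, those upstream of Phactr1 and of Npas3, beside 13.8% of all islands. By the deposited FDR, 27 of 29 islands within 1 Mb of Npas3 were lower and 1 higher. Around Dab1 7 of 10 were lower and 1 higher, and around Prdm16 4 of 10 were lower and 4 higher. Around Rap1gap2 4 of 6 were lower and 1 higher, and around Phactr1 4 of 6 were lower and 2 higher. These counts were not tested.

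**Figure D4:**
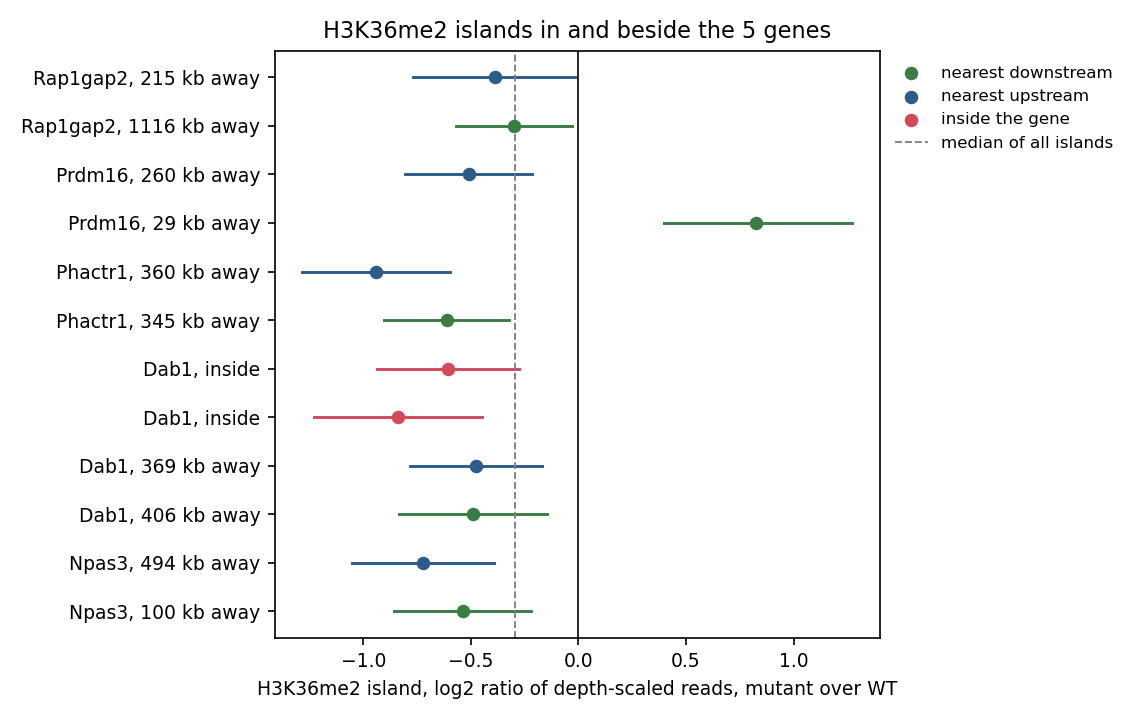
Log2 ratio of depth-scaled H3K36me2 reads, mutant over WT (x axis), for the 2 islands inside Dab1 (red) and the nearest island upstream (blue) and downstream (green) of each gene, with exact binomial 95% intervals as bars and the distance to the gene on the y axis. All points lie below 0 except the island 29.3 kb downstream of Prdm16, and the dashed line marks the median of all islands at -0.30.

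No narrow H3K36me2 window was called at the genes. The DiffBind table lists H3K36me2 windows with an unadjusted p under 0.05, and 5 of them lay at the genes, all 5 higher in the mutant. None passed the FDR: by the authors' deposited table each had an FDR of 0.9996 and a shrunken log2 fold of 0.0018 to 0.0034, close to no change, as 0 of 18072 windows were called at 0.05 (0%). Unadjusted, 223 windows (1.23%) were listed as higher and 507 (2.81%) as lower. The values below are genotype means, which lack that shrinkage. Of the 223 listed as higher, 77 shared coordinates with a falling H3K27me3 window, 11 with a rising one and 135 with no listed one. Each of the 5 had the same coordinates as a falling H3K27me3 window, at genes that were chosen for their falling windows. This match was not tested.

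Prdm16 held 2 of the 5 H3K36me2 windows. At the window upstream of the start H3K36me2 had means of 1.78 WT and 9.31 mutant reads (unadjusted p = 0.00316 by the authors' deposited table), where H3K27me3 went from 180.4 to 75.8. Near the far end of the gene, from 154339785 to 154340185, the H3K36me2 means were 1.94 and 5.73 reads (p = 0.0396 by the authors' deposited table). Npas3 also held 2. From 53723206 to 53723606 the H3K36me2 mean was at the table's floor of 1 read in WT and 4.94 in the mutant (p = 0.00693 by the authors' deposited table), so the size of that difference depends on the floor. From 53916145 to 53916545 the means were 2.77 and 8.01 (p = 0.0341 by the authors' deposited table). In Phactr1, from 42773276 to 42773676, they were 1.80 and 6.61 (p = 0.0359 by the authors' deposited table). Rap1gap2 and Dab1 had no listed H3K36me2 window.

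**Figure D5:**
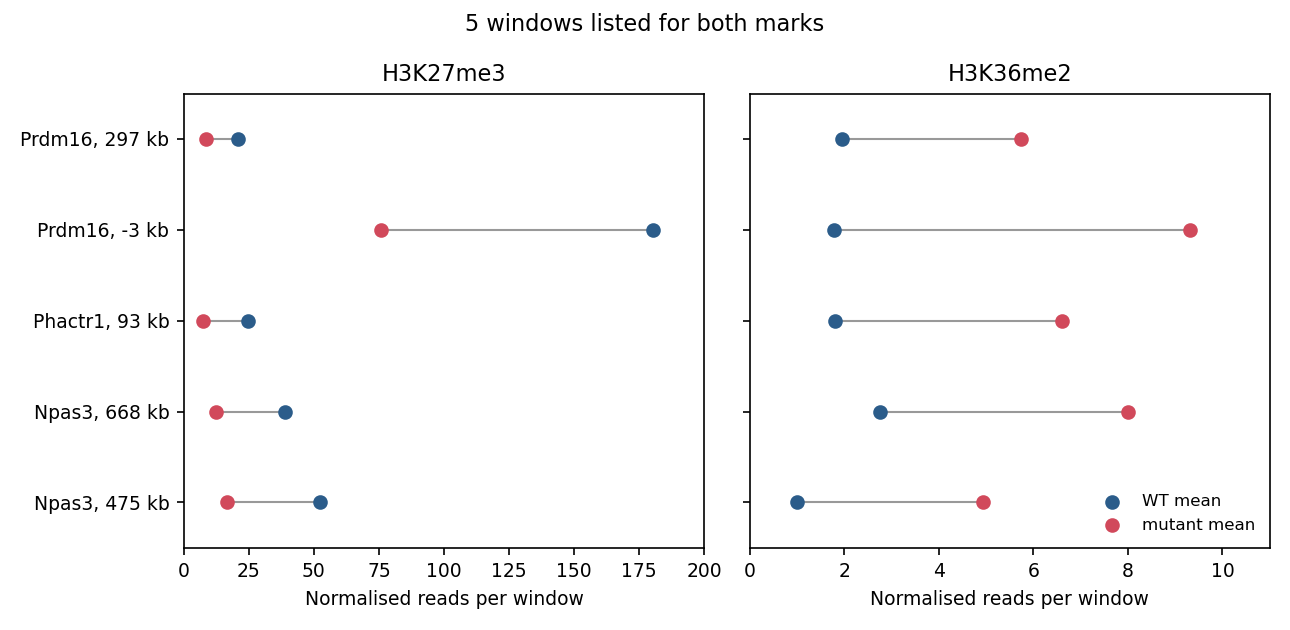
Mean H3K27me3 (left) and H3K36me2 (right) in normalised reads (x axes, of different length) at the 5 windows listed for both marks, named by gene and distance from its first start, with WT in blue and mutant in red. H3K27me3 is lower in the mutant at all 5, while H3K36me2 goes from 1 to 2.77 reads in WT to between 4.94 and 9.31 in the mutant.

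Of the 30 falling windows, 5 (16.7%) were thus listed as higher for H3K36me2 and 0 as lower. Over all 2742 falling windows these numbers were 77 (2.81%) and 38 (1.39%), and in other genes of at least 200 kb 12 (3.02%) and 7 (1.76%) of 397. The same animals gave both marks, the H3K36me2 means at the 5 windows were at most 9.31 reads, and the difference between the 5 genes and other genes was not tested.

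Relatives of the 5 genes were read next, beside 7.43% of all genes with a falling window, 2.64% with a rising one, 12.2% with a lower H3K36me2 island and 7.13% with a higher one. An island fold below is that of the gene's island with the lowest FDR. Among the genes named, Prdm10, Arntl, Mrtfb, Phactr4, Src, Rapgef1, Rapgef4 and Rapgef5 hold islands called in each direction. Of 14 other PRDM family genes, 7 had a falling window and 0 a rising one. Prdm12, needed for pain-sensing neurons, had 162.4 WT and 61.9 mutant reads (FDR 2.11e-11 by the authors' deposited table). Mecom, the closest relative of Prdm16 and a blood stem cell regulator, had 2 falling windows, the stronger going from 89.7 to 35.0 reads (FDR 1.12e-06 by the authors' deposited table). Prdm6 and Prdm8 fell at FDRs of 4.62e-07 and 6.36e-06 by the authors' deposited table. Among these 14 genes 3 had a lower H3K36me2 island and 1 a higher one, with folds of 0.631 at Prdm1, 0.679 at Prdm2 and 1.19 at Prdm10 by the authors' deposited table.

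In the bHLH-PAS family, 4 of 21 other genes had a falling window and 1 a rising one. Arnt2, which encodes a dimerisation partner of bHLH-PAS proteins, had 3 falling windows, the strongest going from 108.7 to 40.6 reads (FDR 7.14e-09 by the authors' deposited table). Npas4, a gene switched on by neuronal activity, went from 30.6 to 8.18 reads (FDR 2.34e-04 by the authors' deposited table), and Npas1 and Sim2, the latter named to complete the count, fell at FDRs of 0.00270 and 0.00339 by the authors' deposited table. Npas2, a circadian clock gene, rose instead, with a log2 fold of 1.64 (FDR 8.59e-06 by the authors' deposited table). Islands were lower at 6 of the 21 and higher at 2, with a fold of 0.530 at Hif1a, the oxygen-sensing factor gene, and 0.630 at the clock gene Arntl by the authors' deposited table. Of the coactivator genes, Ncoa3 had 0.635 and Ncoa2 0.770 by the authors' deposited table. Both islands of Ncoa1, a coactivator gene named after its values were seen, were higher, with a fold of 1.59 at the one of lowest FDR by the authors' deposited table.

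Among 11 PHACTR genes and partners, Phactr3 fell at 2 windows, the stronger from 38.8 to 11.8 reads (FDR 3.88e-04 by the authors' deposited table). Phactr2 moved the other way, with 2 rising windows, the stronger from 5.94 to 29.8 reads (FDR 1.50e-05 by the authors' deposited table). It also had 2 lower H3K36me2 islands, the first at a fold of 0.569 (FDR 3.87e-09 by the authors' deposited table), whereas Phactr3, like Phactr1, had no island. Of the 11 genes, 3 had a lower and 3 a higher island, including Ppp1cc, a catalytic subunit gene of protein phosphatase 1, at 1.73, Mrtfb at 1.43 and Phactr4 at 0.754 by the authors' deposited table.

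Of 15 other Reelin pathway genes, 3 had a falling and 3 a rising window. Reln, the ligand gene, went from 137.2 to 55.0 reads (FDR 1.80e-07 by the authors' deposited table). Fyn, the kinase gene that acts on DAB1, had 1 window of each kind, the falling one from 58.7 to 17.9 reads (FDR 5.00e-07 by the authors' deposited table). Mapt, the tau gene, fell with a log2 fold of -0.76, and Dab2ip rose with 1.05, by the authors' deposited table. Islands were lower at 5 of the 15 and higher at 2, with folds of 0.619 at Reln, 0.626 at Dab2ip, 1.48 at Rapgef1 and 1.34 at Src by the authors' deposited table.

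Of 21 other Rap1 regulators, 3 had a falling and 3 a rising window, with Radil counted in both. The falls were log2 folds of -1.16 at Apbb1ip, -0.88 at Radil and -0.76 at Rap1gap, the nearest relative of Rap1gap2 and named to complete the count, by the authors' deposited table. Rapgef4, an exchange factor gene for Rap1, rose at 1.27 by the authors' deposited table, and Rapgef5 at 1.22 by the authors' deposited table. Islands were lower at 9 and higher at 6 of the 21, among them Rapgef1 (1.48), Rapgef4 (0.730), Rapgef2 (0.753) and Rapgef5 (0.721) by the authors' deposited table. These family counts describe lists chosen around the 5 genes and were not tested.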

How the data were processed

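H3K36me2 and H3K27me3 were measured by CUT&RUN in 3 mutant and 3 WT animals each, and 3 IgG libraries per genotype were not used here. Reads of 37 bp were paired-end, per the labels' protocols. Alignment with Bowtie2 to GRCm38 (mm10) and comparison with DiffBind, DESeq2 and SICER are named in the submitters' processing notes. Not given in the sources used here: tool versions, peak caller, spike-in, blacklist.

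The DiffBind tables the authors deposited hold log2 mean normalised reads per genotype, a shrunken log2 fold, a p-value and an FDR per window, per the file headers. The SICER2 table the authors deposited holds read counts of pooled libraries per genotype, RPM, the ratio of scaled counts (fold) and p-values with FDR per direction, per the file headers. Means were converted from log2. The number of windows tested came from FDR divided by p in the first row. Genes and starts came from the RefSeq tables of GRCm38.p6, in which all 5 symbols matched. Depth per library is unknown. For islands, exact binomial tests and 95% intervals (scipy 1.17.1, Python 3.11.15) used the pool depths implied by counts and RPM. The code was run on simulated islands drawn from the same binomial model. Without spread between animals or PCR copies, that run cannot show that the test suits these pools. PCR copies are not independent molecules, so where they are among the reads the intervals are too narrow even for counting error. The authors' FDR under 0.05 was the call rule, and H3K36me2 windows were taken as listed. The members, gene lists and rules were chosen with earlier results of these data known. List genes named are up to 4 per list and table by smallest FDR. Alternatives changed the flank, the FDR, the overlap rule, the distance to a start and the island test and scaling.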

Additional observations from a re-analysis of the deposited data

How the results depend on the processing

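Of 41 alternative values, 37 stayed within the spread or within 1.5 times the main count. That number does not measure robustness. Counts of 0 could not rise under a stricter rule, and the falling windows are those by which the genes were chosen. The 30 falling windows became 19 at an FDR under 0.001, and the 5 H3K36me2 windows became 2 at an unadjusted p under 0.01. Dividing island folds by the median fold of all islands left 1 of the 2 Dab1 islands lower by the exact binomial test, and moved their median log2 fold from -0.72 to -0.42. These changes follow from the stricter threshold or the scaling itself. With gene bodies in place of 5 kb flanks, 27 of the 30 falling windows stayed, and 4 of the 5 H3K36me2 windows. Leaving out the H3K36me2 window with a mean under 1.5 reads, an alternative chosen after seeing the data, left 4. No paired analysis was possible because the tables hold genotype means and pooled reads with no column per animal, and no animal belongs to both genotypes. For the same reason no replicate could be left out. Windows not called are not among the rows read, so levels of called windows say nothing of the rest of each gene.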

Other observations

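Camta1, tied with the 5 genes at 6 falling windows and 0 rising ones, had H3K27me3 means of 13.8, 28.04, 29.1, 21.9, 31.4 and 30.03 reads in WT, by increasing chromosome position. The mutant means were 2.28, 5.48, 10.05, 8.28, 8.02 and 11.7 reads. Its lowest window had 0.165 times the WT level, under the lowest ratio of the 30 windows described above. It held 2 H3K36me2 islands, neither of them called in either direction, and no listed H3K36me2 window. Celf4, with 5 falling windows, had 2 listed H3K36me2 windows, both lower in the mutant, and 1 lower island at a fold of 0.662 by the authors' deposited table.

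Falling windows were also found at markers of other cell types, beside 7.43% of all genes with a falling and 2.64% with a rising window. Of 5 neuron and glia markers, Rbfox3 had 3 falling windows and Tubb3 had 1, and of 6 dermal fibroblast and endothelial markers Pdgfra had 2, while Pecam1 and Vwf had 1 rising window each. The 5 melanocyte and 4 immune markers had 0 falling and 0 rising windows, and the suprabasal markers 1 rising window, at Lor. Lower H3K36me2 islands were found at 3 of the 6 dermal fibroblast and endothelial, 2 of the 5 melanocyte, 1 of the 4 immune, 1 of the 5 suprabasal and 0 of the 5 neuron and glia markers, beside 12.2% of all genes. Higher islands were found at 0 genes of these 5 lists, beside 7.13% of all genes. Of 6 basal epidermal markers, 5 had a higher island, 2 a rising window and 0 a falling one, and Trp63, among the 5, also had 2 lower islands. Whether cell composition differed between the genotypes was not tested.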
